A study of Mus musculus with 3 samples.

Results

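Il10-positive Foxp3-negative Il21-negative CD4 T cells (written below as Il10+Foxp3- cells) numbered 204 among 13770 single immune cells from inflamed sciatic nerves of the mouse. A member had at most 5000 detected genes and at most 20% mitochondrial UMIs, where a UMI (unique molecular identifier) stands for 1 captured transcript. It had at least 1 UMI of Cd3d, Cd3e or Cd3g, at least 1 of Cd4 and at least 1 of Il10. It had 0 UMIs of Cd8a, Cd8b1, Foxp3, Il21 and Cd79a, and at most 1 of C1qa, C1qb and C1qc together. The members were chosen by these measured counts, so the levels of the genes in the rule are given below as a description only. All cells came from neuropathic NOD.AireGW/+ mice, which carry 1 altered copy of Aire on the NOD background and develop spontaneous autoimmunity against peripheral nerve. CD45+ cells were sorted from digested sciatic nerves after perfusion of the animal and processed as single-cell RNA libraries. A single animal gave library 1 and another gave library 2, whereas the nerves of 2 animals were combined in library 3 and their cells could not be told apart. All 3 libraries belong to 1 group, so cell groups were compared within libraries, and no healthy nerve was analysed here.

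Interleukin-10 is a cytokine that restrains antigen presentation and inflammatory cytokine release, and it also supports B cell survival and antibody secretion. Among CD4 T cells it is made by Foxp3-positive regulatory T cells and by Foxp3-negative effector cells, of which the type 1 regulatory (Tr1) cell is the best known. In T cells, the transcription factors c-Maf (Maf) and Blimp-1 (Prdm1) are known to promote Il10 transcription. Ccr2 is a chemokine receptor that guides cells to inflamed tissue.

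Of the genes described below as higher in Il10+Foxp3- than in Il10-negative cells, 15 belonged to the fixed lists of T cell genes, and 10 of them had an entry in the RefSeq promoter table (GRCm38.p6), while Ikzf2, Ikzf3, Lag3 and Maf were among those with none. The windows of 250 bases before the start site are shown for Prdm1, a factor upstream of Il10, and for Ctla4, an inhibitory receptor, because both genes were higher in the members and only the first window held a searched motif. The Prdm1 window lies at chr10:44458749-44458998 on the minus strand and the Ctla4 window at chr1:60908775-60909024 on the plus strand. Capitals mark a match to the AP-1 motif TGANTCA, which began 48 bases before the RefSeq start used for Prdm1. That start lies inside the span of Prdm1 given below, and not at an end of it.
Prdm1: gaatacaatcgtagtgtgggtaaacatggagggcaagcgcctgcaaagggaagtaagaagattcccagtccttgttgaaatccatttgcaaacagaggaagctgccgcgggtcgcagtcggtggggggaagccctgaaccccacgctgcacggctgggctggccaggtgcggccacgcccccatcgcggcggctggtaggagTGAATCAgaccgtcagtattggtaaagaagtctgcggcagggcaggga
Ctla4: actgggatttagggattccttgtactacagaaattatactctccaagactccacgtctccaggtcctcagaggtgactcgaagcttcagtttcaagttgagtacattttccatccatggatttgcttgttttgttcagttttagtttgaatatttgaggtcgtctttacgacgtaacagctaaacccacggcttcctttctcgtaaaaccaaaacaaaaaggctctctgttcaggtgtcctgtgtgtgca
On both strands, TGANTCA was found in 2 of the 12 windows of these 10 genes (Prdm1 and 1 of the windows of Tnfrsf9). The MAF half-site TGCTGAC was in 0 of the 12 and the TCF/LEF motif CTTTGA in 1. The shares among all 32851 mouse windows were 6.75%, 3.81% and 13.8%. No match of 1 motif overlapped another in these windows. One further sequence belongs to a gene that was lower in the members, Mir155hg, the host transcript of the microRNA miR-155, which promotes T cell effector responses. Its mature 5′ arm lies at chr16:84714143-84714165 on the plus strand and is printed with the seed, bases 2 to 8, in capitals.
mmu-miR-155-5p: uUAAUGCUaauugugauaggggu
The libraries measured the host transcript and not the mature microRNA.

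The members numbered 90 in library 1, 99 in library 2 and 15 in library 3. That was 10.1% (exact 95% interval 8.17 to 12.2) of 894 gated CD4 T cells in library 1, 9.35% (7.66 to 11.3) of 1059 in library 2 and 7.08% (4.01 to 11.4) of 212 in library 3. The intervals overlapped, and the mean was 8.83% ± 1.56 (SD, n = 3 libraries). The gate also held 1212 Il10-negative Foxp3-negative Il21-negative cells, 137 Il10+Foxp3+ cells (Il21-negative), 380 Il10-negative Foxp3-positive cells and 173 Il21+ cells without Il10 and Foxp3. Cells with both Il10 and Il21 but no Foxp3 (15, 30 and 2 in libraries 1 to 3) were kept apart. Libraries 1 to 3 held 22983991, 55120460 and 3399733 UMIs. The median member had 2618.5, 2657 and 1393 UMIs, against 3003, 2413 and 1770 in Il10-negative cells and 4698.5, 7403 and 2933 in Il10+Foxp3+ cells. Detection therefore had different depths behind it, and intervals here cover counting error only. When each cell was thinned to 1500 UMIs drawn at random before the rule was applied, the share was 9.62%, 7.62% and 1.03%. These were 46 of 478, 46 of 604 and 1 of 97 cells, and the exact interval of library 3 was 0.026 to 5.61. Library 3 was the lowest by either measure, after thinning on 1 cell. Between libraries 36, 7 and 14 cell barcodes were shared, of which 0 were members.

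Il10 (chr1:131019845-131024974, mm10) was seen in most members through few UMIs. Of the 204 members, 84 had 1 Il10 UMI, 66 had 2 to 3 and 54 had 4 or more, with a median of 2 and a highest value of 14. The members summed to 556 Il10 UMIs, which were 20.9%, 18.1% and 21.8% of all Il10 UMIs of libraries 1 to 3. B cells (at least 1 Cd79a UMI and no Cd3 UMI) served as a guide to the free-RNA background. Of these B cells, 1.69%, 0.815% and 0% had an Il10 UMI, at median depths of 3948.5, 3142 and 1710 UMIs. Transcripts made by the B cells themselves could not be told apart from free RNA, here or for the genes below. Il10 UMIs were also found in 4.77%, 3.83% and 0.758% of CD8 T cells. A count of 0 in the 81 B cells of library 3 allows a share of up to 4.45% by the exact interval.

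**Figure D1:**
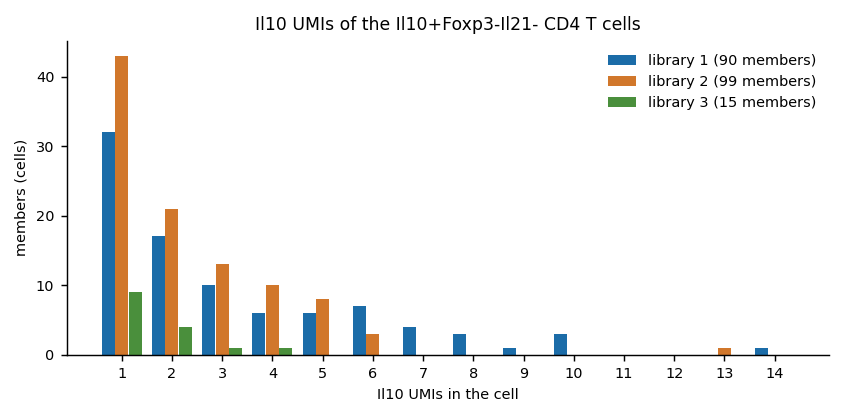
Number of Il10+Foxp3- members (y axis, cells) by the Il10 UMIs in the cell (x axis), for libraries 1 to 3. The bar at 1 UMI is the highest in each library, with 32, 43 and 9 members, and 54 members of the 3 libraries together had 4 or more.

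Members lay close to several edges of the rule. A single Cd4 UMI was all that placed 87 of the 204 in the gate, and 139 cells that met every other criterion had no Cd4 UMI. There were 16 members with 1 C1q UMI, and 5 cells with 2 and 37 with more were left out. Of the Il10+Foxp3+ cells, 49 of 137 had exactly 1 Foxp3 UMI, and whether Foxp3 transcripts were missed in members was not tested. Il2ra (the IL-2 receptor alpha chain) or Ikzf2 (Helios), genes highest in regulatory T cells, had a UMI in 121 of 204 members, 35 had both, and 83 (40.7%) had neither. Results were therefore repeated with Foxp3-negative cells that had no UMI of either gene.

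The 4 genes that mark this population were not found together in most members. Besides Il10, Maf had a UMI in 150 of 204 members (73.5%, exact interval 66.9 to 79.4), Ccr2 in 90 (44.1%, 37.2 to 51.2) and Prdm1 in 46 (22.5%, 17.0 to 28.9). All 3 genes were found in 22 members and none in 28. Ccr2 differed between libraries, with a UMI in 51 of 90, 37 of 99 and 2 of 15 members, whereas Maf was found in 67, 73 and 10. With 1500 UMIs per cell, which left 63, 84 and 6 members, Maf was detected in 52.9% ± 17.0 of members (SD, n = 3 libraries; 71.6% unthinned) and in 29.2% ± 2.7 of Il10-negative cells. The B cell share was 0.446%. Prdm1 was detected in 9.66% ± 8.48 of thinned members (21.9% unthinned), against 5.39% ± 1.44 in Il10-negative and 1.52% in B cells. Ccr2 was detected in 19.3% ± 17.0 (35.8% unthinned), against 14.1% ± 7.12 and 1.10%. For Prdm1 and Ccr2 the members' spread between libraries covered the value of Il10-negative cells. The label's markers were thus present in the population, Maf most widely, and Prdm1 and Ccr2 in a minority of cells.

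Several genes differed between cells with few and with many Il10 UMIs. Il10-negative cells (0 UMIs) and members with 1, 2 to 3, and 4 or more Il10 UMIs were compared as sums over libraries, in UMIs per 1000000 UMIs of the class. Maf was at 218, 427, 691 and 829, and Ctla4 at 861, 1877, 2661 and 3076. Lag3, an inhibitory receptor, was at 322, 1063, 1237 and 1547. Each of these 3 genes was thus higher in every further class of the summed cells. Tcf7, the factor of resting and stem-like T cells, was at 171, 17.9, 8.09 and 4.43, and Il7r, the IL-7 receptor, at 492, 319, 105 and 106. S1pr1, the receptor for exit from tissue, was at 283, 169, 68.7 and 48.8. Prdm1 was at 79.0, 84.9 and 84.2 in the members, on 22, 21 and 19 UMIs, against 35.6 in Il10-negative cells. Ccr2 differed between libraries, at 574, 394 and 406 in the 3 member classes of library 1 against 281 in its Il10-negative cells, and at 131, 177 and 122 against 86.5 in library 2, so its summed levels are not compared. The sums rested on 1212, 84, 66 and 54 cells and no test was made of them, since the Il10 counts define the classes. Library 3 had 1 cell with 4 or more Il10 UMIs.

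**Figure D2:**
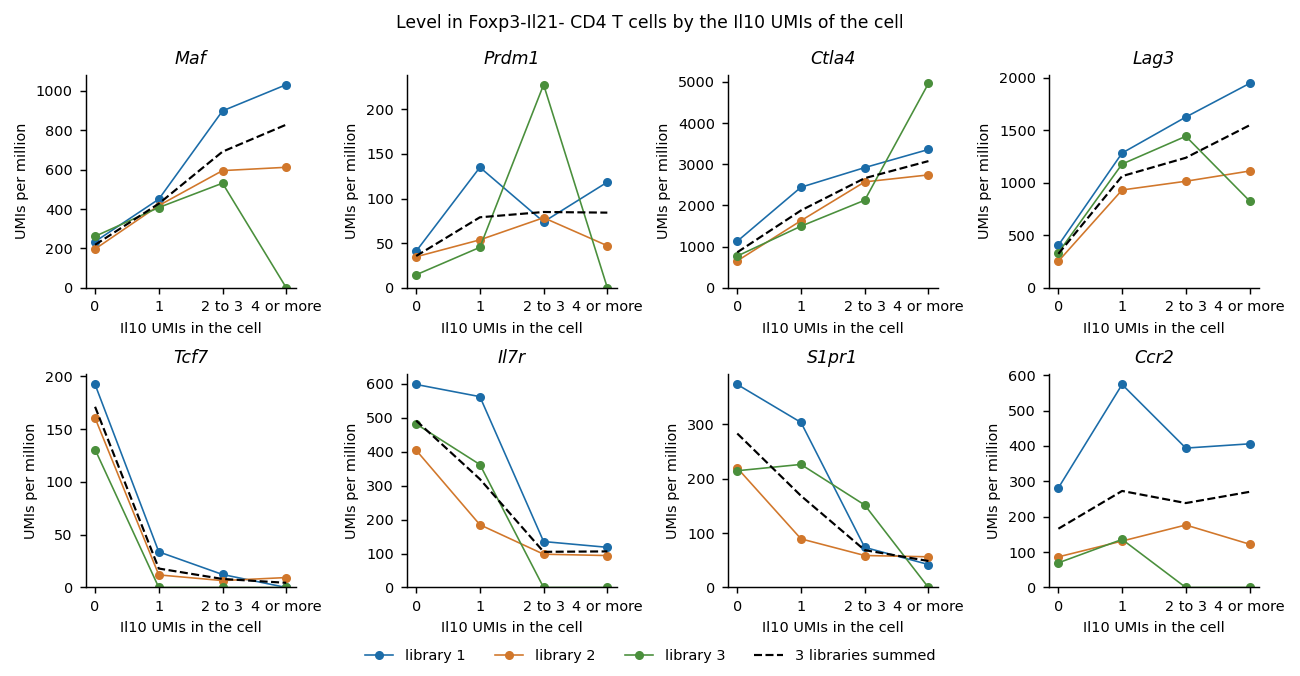
Level of 8 genes (y axes, UMIs per 1000000) in Foxp3-negative Il21-negative CD4 T cells by the Il10 UMIs of the cell (x axes), with 1 coloured line per library and the 3 libraries summed as a dashed line. On the dashed line Maf, Ctla4 and Lag3 are lowest and Tcf7, Il7r and S1pr1 are highest at 0 Il10 UMIs, and the last point of library 3 is 1 cell.

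To ask what set the Il10+Foxp3- cells apart from Il10-negative Foxp3-negative Il21-negative cells of the same nerves, UMIs were summed per library and cell group. Levels are counts per 1000000 UMIs of a sum (CPM), scaled by the TMM method, which corrects for differences in composition. Differences are on the log2 scale with their standard error (SE), from edgeR's quasi-likelihood test with the library as a block, and a call needed an adjusted p under 0.05 over 6162 genes. Each p rests on how far the differences between groups varied among these 3 libraries, pooled over the 5 groups of the fit. The spread of levels between libraries was taken out by the block. The genes of the rule were not tested. In the members 92 genes were higher, 1.49% of those tested, and 96 were lower, 1.56%. The median difference of all genes was -0.04. Without library 1 the calls fell to 23 higher and 37 lower, without library 2 to 18 and 22, and without library 3 they numbered 116 and 148.

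Maf (chr8:115682942-115707794 in mm10) was the regulator of Il10 with the largest difference. It was at 778, 601 and 413 CPM in the members of libraries 1 to 3 (597 ± 182, SD, n = 3) and at 238.5, 233 and 318 in Il10-negative cells (263 ± 47.4). The groups did not overlap, and the log2 difference was 1.36 (SE 0.21, adjusted p = 1.09e-08). Prdm1 (chr10:44437177-44528501) was at 106, 69.2 and 103 CPM against 41.7, 41.2 and 17.7, without overlap (1.17, SE 0.30, adjusted p = 0.00563). Of 14 tested factors that act on Il10, 5 were higher, namely Maf, Prdm1, Nfil3, Ikzf3 and Ikzf2, and 2 were lower, Bhlhe40 and Rora. The list's median was 0.56. Nfil3, a factor of IL-10-producing helper cells, was at 251.5, 237 and 413 CPM against 120, 141 and 254 (0.84, SE 0.22, adjusted p = 0.00723), with overlap of the ranges. Ikzf3 (Aiolos) differed by 1.08. Bhlhe40, a factor that represses Il10, was at 596, 452 and 284 against 768, 688 and 954 CPM, which do not overlap (-0.72, SE 0.22, adjusted p = 0.0368). Rora, a factor of type 17 helper cells, differed by -1.31, with 0 UMIs in the members of library 3. Other factors linked to Il10 did not pass, with Irf4 at 0.76 (adjusted p = 0.122), Tbx21 (T-bet) at 0.73 (0.176), Ahr at 0.40, Batf at -0.32 and Stat3 at -0.08. Ccr2 did not pass either, at 434, 165 and 77.4 CPM against 286, 103 and 84.8 (0.59, SE 0.23, adjusted p = 0.166). It passed in 5 of 15 alternatives, namely with DESeq2 size factors (0.63), in cells of 1500 to 6000 UMIs (1.04), without cells holding myeloid or B cell UMIs (0.81), with no Cd4 UMI needed (0.57), and after cells with 20 or more UMIs of MHC class II genes were left out (0.92), the last chosen after seeing the data. Irf4 passed in 2, in cells of 1500 to 6000 UMIs (1.13) and with no Cd4 UMI needed (0.89). Without library 1, Maf (1.06), Prdm1 (1.03), Nfil3 (0.73), Ikzf3 (1.08), Ikzf2 (1.38), Bhlhe40 (-1.05) and Rora (-1.74) did not pass. Without library 2 the same 7 genes did not pass, at 1.29, 1.55, 0.94, 1.22, 0.70, -0.83 and -1.09, and without library 3 all 7 passed.

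Of 11 tested inhibitory receptor genes 3 were higher in the members. Lag3 (chr6:124904361-124911705), a receptor for MHC class II that marks Tr1 cells, was at 1575, 1141 and 1187 CPM (1301 ± 238.5) against 411, 299 and 406 (372 ± 63.4). The lowest member value was above the highest of the Il10-negative cells, and the difference was 3.57-fold (log2 1.84, SE 0.22, adjusted p = 3.41e-14). Ctla4, which competes with Cd28 for its ligands, was at 2816, 2545 and 1729 CPM against 1149, 774 and 936 (1.34, SE 0.23, adjusted p = 1.16e-06). Tigit, another inhibitory receptor, was at 976, 883 and 1161 against 411, 342 and 717 (1.11, SE 0.21, adjusted p = 2.75e-05). In 3 of 3 libraries each of these 3 receptors was higher in the members. Of the 11 genes 0 were lower. Pdcd1 (PD-1) was not among them, at 361, 205 and 361 CPM against 447, 212.5 and 321 (-0.15, adjusted p = 0.898). Havcr2 (Tim-3) had a difference of 0.98 (adjusted p = 0.0692) and passed in 5 of 15 alternatives, namely without Il2ra or Ikzf2 UMIs (1.76), without cells holding myeloid or B cell UMIs (1.66), without the highest doublet scores (1.08), with no Cd4 UMI needed (1.18) and without cells of 20 or more MHC class II UMIs (1.30). Of the 13 tested Tr1 genes, 6 were higher and 1 was lower, with a median of 0.85. Lag3, Ctla4 and Tigit stand in this list too and count in both. Others that were higher were Entpd1 (CD39, which degrades extracellular ATP, 1.02) and Tnfrsf9 (the costimulatory receptor CD137, 0.85), each in 2 of 3 libraries. The lower gene was Cd226, the activating partner of Tigit, with 2, 1 and 0 UMIs in the members. Itga2 (CD49b), which with Lag3 defines Tr1 cells on the surface, had 0 UMIs in the members of all 3 libraries, and in Il10-negative cells it was at 5.52, 1.79 and 0 CPM. Without library 1, Ctla4 (1.38), Tigit (1.04), Entpd1 (0.63) and Tnfrsf9 (0.20) did not pass, and without library 2, Ctla4 (1.18), Tigit (1.00), Entpd1 (1.05), Tnfrsf9 (0.83) and Cd226 did not.

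Several genes of the regulatory T cell program were higher in these Foxp3-negative cells. Of 17 tested genes of that program 7 were higher and 1, Gata3 (-1.08), was lower, with a median of 0.62. Ctla4 and Tnfrsf9 are also counted among the Tr1 genes, and Ikzf2 among the factors that act on Il10. Il2ra was at 165, 183.5 and 103 CPM against 45.4, 50.7 and 42.4, without overlap (1.82, SE 0.26, adjusted p = 9.07e-10). Ikzf2 was at 294.5, 402 and 310 against 185, 119 and 194, also without overlap (1.14, SE 0.22, adjusted p = 1.67e-05). Izumo1r (folate receptor 4) differed by 1.11 and Capg, an actin-capping protein, by 0.96. Among Foxp3-negative cells without Il2ra and Ikzf2 UMIs, the direction of Lag3 (1.74), Ctla4 (1.48), Tigit (0.98), Maf (1.09), Prdm1 (1.69) and Tcf7 (-3.34) stayed and all 6 still passed. Of the 52 called genes followed there, 14 no longer passed, among them Il2ra, Bhlhe40 (-0.58), Gata3 (-1.31), Cd40lg (-0.60), Tnfsf8 (-0.56), Stat4 (-0.65), Tgfbr2 (-0.81), Rgs1 (0.57), Mir155hg (-0.68), Nrn1 (-2.13) and Agpat4 (1.23), and 3 changed sign, Ikzf2 (-0.06), Il1r2 (-0.55) and Tnfrsf9 (-1.69). Il2ra and Ikzf2 have no UMI in either group there by construction, so the outcome of these genes was fixed and is not a result. In that setting 63 genes were higher and 59 lower. Without library 1 the calls of Ikzf2 (1.38), Izumo1r (0.97), Capg (0.78) and Gata3 (-0.80) were lost, without library 2 those of Ikzf2 (0.70), Izumo1r (1.01), Capg (0.69) and Gata3 (-1.51), and without library 3 that of Gata3 (-0.95).

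Genes of resting, recirculating T cells were lower. Of 10 tested, 5 were lower and 0 higher, with a median of -1.38. Tcf7 (chr11:52252371-52283014) was at 13.2, 10.6 and 0 CPM (4, 4 and 0 UMIs) against 196, 190 and 159, a log2 difference of -4.10 (SE 0.40, adjusted p = 2.39e-21). Only 7 of 204 members had a Tcf7 UMI. Klf2, a factor that drives S1pr1, was at 341, 101 and 77.4 CPM against 839, 569.5 and 487 (-1.85, SE 0.23, adjusted p = 2.4e-13), and no member value reached the lowest Il10-negative value. S1pr1 was at 126, 79.8 and 181 against 380, 261 and 261 (-1.53, SE 0.25, adjusted p = 1.74e-07). Il7r was at 248, 149 and 206 against 609, 480 and 586 (-1.51, SE 0.22, adjusted p = 3.61e-09). All 4 genes were lower in 3 of 3 libraries. Slamf6 completed the set at -1.24. Of 19 migration genes 2 were higher, Rgs1 (0.77) among them, and 3 were lower, namely Klf2, S1pr1 and Itgb1, an integrin chain (-1.31). Meanwhile Cxcr6, a receptor of tissue-resident T cells, was at 682, 229 and 181 CPM against 413, 197 and 67.1 and did not pass (0.60, adjusted p = 0.108), but did in 4 of 15 alternatives, with DESeq2 size factors (0.63), without sums under 10 cells (0.58), in cells of 1500 to 6000 UMIs (0.65) and without cells of 20 or more MHC class II UMIs (0.64). Without library 1 the calls of S1pr1 (-1.35), Slamf6 (-1.14) and Rgs1 (0.76) were lost. Without library 2 those of S1pr1 (-1.29), Slamf6 (-1.26), Rgs1 (0.76), Il7r (-1.35) and Itgb1 (-1.33) were lost, and without library 3 that of Klf2 (-1.75).

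The helper programs moved less evenly. Of 10 tested follicular helper genes 4 were lower, namely Sh2d1a (the adaptor SAP, -1.85), Slamf6, Cd40lg (-1.08) and Tnfsf8 (CD30 ligand, -0.77), and 1, Izumo1r, was higher. The median was -0.73. Sh2d1a was at 66.2, 71.8 and 103 CPM against 243, 254 and 283. Of 20 type 1 helper and cytotoxic genes, 1 was higher and 3 were lower, with a median of -0.40. Ifng was at 172, 197 and 181 CPM against 136, 289 and 219, with overlap (-0.13, SE 0.29, adjusted p = 0.939), and 62 of 204 members (30.4%) had an Ifng UMI. The higher gene was Ccl3, at 371, 364 and 0 CPM, and 58 of its 249 member UMIs came from 1 cell. Il2 had 1, 1 and 0 UMIs in the members and 65, 56 and 11 in Il10-negative cells. The receptor Il18r1 (-1.76) and the factor Stat4 (-0.80) were the other lower genes. Among 16 cytokine receptors, Il7r, Tgfbr2 (-0.83) and Il18r1 were lower and Il1r2, a decoy receptor for IL-1, was higher (2.05), with 37 of 43 UMIs in library 2. Il10ra (0.11), Il27ra (0.21) and Il21r (-0.06), receptors for IL-10 and for cytokines that induce it, did not pass. Of 14 cell cycle genes and of 8 STAT3 pathway genes 0 passed in edgeR and 0 in DESeq2, and 4 and 3 had an unadjusted edgeR p under 0.05. Of 13 early genes of antigen receptor signalling 1 passed, Tnfrsf9. Calls lost without library 1 were Cd40lg (-1.62), Tnfsf8 (-1.42), Stat4 (-1.2), Tgfbr2 (-1.15) and Ccl3 (0.80). Without library 2, Cd40lg (-0.94), Tnfsf8 (-0.50), Stat4 (-0.30), Tgfbr2 (-0.58), Il18r1 (-1.47), Il1r2 (0.38) and Il2 did not pass, and without library 3, Ccl3 (1.80), Tnfsf8 (-0.63), Stat4 (-0.91) and Tgfbr2 (-0.78) did not.

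Among the genes with at least 50 CPM over both groups and 1 direction in every library, the largest differences included several outside the lists. Sccpdh, a putative dehydrogenase, was at 109, 133 and 155 CPM in the members against 16.6, 20.9 and 14.1, a 6.72-fold difference (log2 2.75, SE 0.30, adjusted p = 1.14e-16). Next in size were, among others, Lztfl1 (2.01), Arl5a (1.85), Lag3, Il2ra, Twsg1 (1.75), Snx9 (1.73), Agpat4 (1.67) and Ddit4 (1.64). Lztfl1, which acts in ciliary transport, was at 278, 221 and 310 CPM against 66.8, 62.7 and 49.5, and Snx9, a membrane-trafficking protein, at 169, 165 and 284 against 55.8, 50.7 and 60.1. The lower end held Tcf7, Nrn1 (-2.61), Gramd3 (-2.42), Emb (-2.29), Dusp10 (-2.27), Tnfsf11 (-2.27), Klf3 (-2.26), Cd9 (-2.18), Ramp3 (-1.87) and Sh2d1a. Emb (embigin) was at 109, 69.2 and 103 CPM against 424, 368 and 622. Dusp10, a phosphatase of JNK and p38 kinases, was at 43.0, 31.9 and 51.6 against 166, 190 and 325. Tnfsf11 (RANKL) was at 69.5, 50.5 and 0 against 252, 248 and 399. Mir155hg was at 39.7, 7.98 and 51.6 against 82.8, 44.8 and 81.2 (-1.42, SE 0.38, adjusted p = 0.0114). In Emb, Dusp10 and Tnfsf11 every member value lay below every Il10-negative value, whereas the ranges of Mir155hg overlapped. Of the 52 genes followed through the settings, Dusp10, Emb, Gramd3, Lag3, Lztfl1, Sccpdh, Sh2d1a, Snx9 and Tcf7 passed in all 15 alternative settings. Without library 1 the calls of Agpat4 (1.54) and Mir155hg (-1.99) were lost, without library 2 those of Twsg1 (1.48), Klf3 (-1.93), Cd9 (-1.98) and Mir155hg (-1.004), and without library 3 that of Ddit4 (1.60). With DESeq2 the calls of Bhlhe40 (-0.66), Ccl3 (1.26), Cd40lg (-1.19), Entpd1 (0.94), Gata3 (-1.07), Il1r2 (1.57), Mir155hg (-1.39), Stat4 (-0.73), Tgfbr2 (-0.81), Tnfrsf9 (0.79) and Tnfsf8 (-0.77) were lost.

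**Figure D3:**
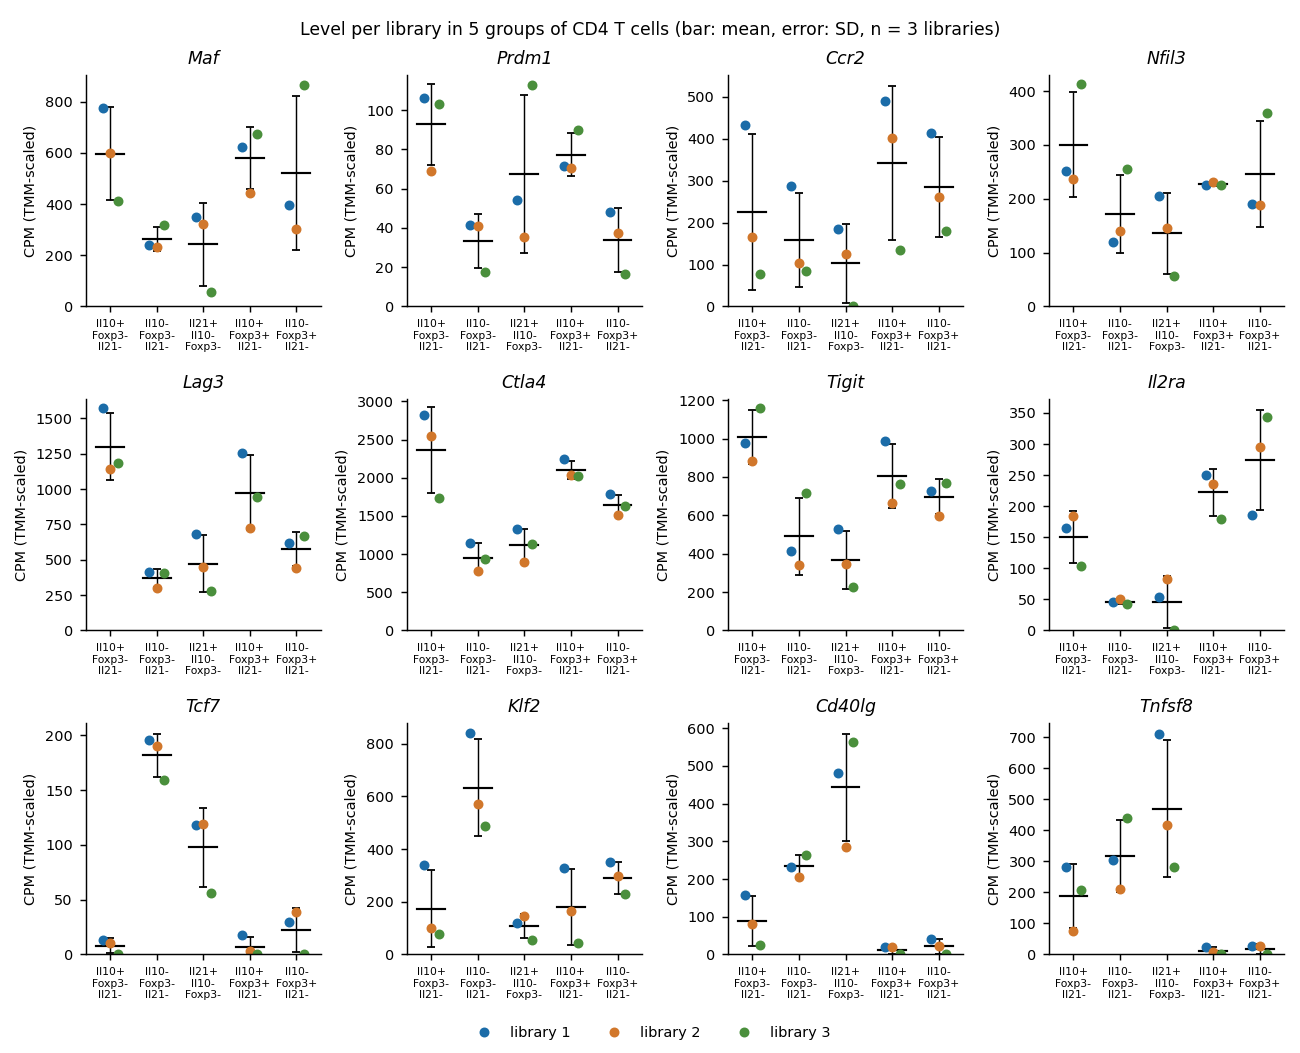
Levels of 12 genes (y axes, TMM-scaled CPM) in the members (Il10+Foxp3-Il21-, first column of each panel) and 4 other groups of CD4 T cells, with 1 point per library, a bar at the mean and an error bar of 1 SD (n = 3). In the members Lag3 runs from 1141 to 1575 CPM and lies above every Il10-negative value, while Tcf7 stays at or below 13.2 CPM, and Cd40lg and Tnfsf8 reach no more than 41.2 and 27.2 CPM in Foxp3-positive cells.

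The second comparison set the members beside Il10+Foxp3+ regulatory T cells, both groups having Il10 UMIs. It uses the same member sums as the first, so the 2 comparisons are not independent. The compared group held 92, 40 and 5 cells, and 1 UMI in the 5 cells of library 3 was worth 45.0 CPM. Fewer genes passed than in the first comparison. In the members 44 genes were higher (0.714% of those tested) and 46 lower (0.747%), and without sums of fewer than 10 cells, which removed library 3 of the compared group, 25 were higher and 25 lower. Without library 1 the counts were 6 and 8, and without library 2 they were 25 and 8. Of 13 tested Tr1 genes 0 were higher and 1, Tnfrsf9, was lower. Among 11 inhibitory receptor genes 0 were higher and 1, Lilrb4a, was lower. Of 10 genes of resting T cells 0 passed in either direction. Lag3, Ctla4, Tigit, Tcf7 and Klf2 therefore did not pass against Il10+Foxp3+ cells. In the 3 lists 4, 3 and 2 genes had an unadjusted edgeR p under 0.05.

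Of 10 tested follicular helper genes 3 were higher in the Foxp3-negative cells and 0 were lower. Tnfsf8 (CD30 ligand) was at 281, 77.1 and 206 CPM against 25.3, 9.21 and 0, without overlap (log2 3.25, SE 0.37, adjusted p = 2.37e-14). Cd40lg, the ligand of CD40, was at 159, 79.8 and 25.8 against 20.6, 18.4 and 0 (2.56, SE 0.40, adjusted p = 1.22e-07). Cd200, a ligand for an inhibitory receptor on myeloid cells, was at 318, 261 and 671 against 176, 95.2 and 0 (1.27, SE 0.25, adjusted p = 0.000181). Irf4, a factor induced by receptor signalling, was at 109, 112 and 25.8 CPM against 23.8, 52.2 and 0 (1.61, SE 0.36, adjusted p = 0.00129), with 1 UMI in the members of library 3. It was the single gene of 14 Il10 regulators that passed. Maf (0.22, SE 0.21) and Prdm1 (0.33, SE 0.33) each had an adjusted p of 0.901, and Ccr2 was at -0.68 (SE 0.24, adjusted p = 0.138). With DESeq2 size factors Ccr2 did pass, as lower in the members (-0.67). The chemokine genes Ccl3 (2.26) and Ccl4 (1.19) and the death ligand Fasl (1.33) were higher, in a list of 20 type 1 and cytotoxic genes with 1 lower gene, Il18r1. In the members 178 of 644 Ccl4 UMIs came from 1 cell. Spry1 (2.12), Osgin1 (1.80), Tbc1d4 (1.73), Slc25a17 (1.62), Lpgat1 (1.38), Sccpdh (1.32) and Gpm6b (1.29) completed the 10 highest by the same rule. Spry1, an inhibitor of receptor tyrosine kinase signalling, was at 59.6, 372 and 206 CPM against 6.34, 101 and 45.0. Among migration genes Itgb1 (1.2), Cxcr6 (0.90) and Rgs1 (0.96) were higher. Without library 1, Cd40lg (2.02), Irf4 (1.07), Ccl4 (0.04), Fasl (1.73), Spry1 (1.84), Osgin1 (2.02), Tbc1d4 (1.72), Slc25a17 (2.34), Lpgat1 (1.2), Sccpdh (1.44), Gpm6b (1.96), Itgb1 (1.74), Cxcr6 (0.67) and Rgs1 (0.96) did not pass. Without library 2, Cd200 (1.39), Ccl4 (1.46), Fasl (1.16), Osgin1 (1.69), Slc25a17 (1.13), Lpgat1 (1.75), Sccpdh (1.36), Gpm6b (1.12), Itgb1 (1.09), Cxcr6 (0.86) and Rgs1 (1.02) did not, and without library 3, Ccl3 (2.29), Ccl4 (1.33), Cd200 (1.04) and Lpgat1 (1.34) did not. With DESeq2, Ccl3 (2.18), Ccl4 (0.54), Fasl (1.38), Lpgat1 (1.45), Sccpdh (1.37) and Cxcr6 (0.79) did not pass, and the call of Ccl4 was kept in only 4 of 15 alternatives. Without cells holding myeloid or B cell UMIs, Ccl4 (1.47), Fasl (1.31), Irf4 (1.58), Lpgat1 (1.38), Slc25a17 (1.21), Gpm6b (0.81), Itgb1 (0.98) and Cxcr6 (0.78) did not, and without cells of 20 or more MHC class II UMIs Ccl4 (1.53) and Lpgat1 (1.45) did not.

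Of 17 tested regulatory T cell genes 3 were lower in the members and 0 were higher, with a median of -0.54, and DESeq2 called 1 of the 17. Itgae (CD103, an integrin of epithelial retention) was at 126, 47.9 and 25.8 CPM against 291, 200 and 180, without overlap (-1.59, SE 0.28, adjusted p = 7.69e-06). Tnfrsf9 was at 275, 85.1 and 77.4 against 554, 190 and 270 (-1.13, SE 0.24, adjusted p = 0.000797), lower in 3 of 3 libraries. Areg (amphiregulin, a tissue repair factor) was at 146, 215 and 155 against 426, 651 and 45.0, so that library 3 went the other way (-1.45, SE 0.24, adjusted p = 1.79e-06). Il2ra (-0.54) and Ikzf2 (-0.41) did not pass, but did with no Cd4 UMI needed (-0.68 and -0.61). Among other genes that were lower were Il18r1 (-1.58), Slc16a3 (-1.34), a lactate transporter, Morrbid (-1.31), Fam129a (-1.27), Hist1h1c (-1.26), Gbp2 (-1.16), Birc3 (-1.08) and Fgl2 (-1.01), a secreted effector of regulatory T cells. The inhibitory receptor Lilrb4a (-1.45) and the proliferation gene Mki67 (-1.09) were lower, in 2 of 3 libraries each. The monocyte gene Cd14 was lower too (-1.28), at 129, 42.6 and 25.8 CPM against 206, 206 and 0, and its call was lost without any 1 library (-2.14, -0.60 and -1.31). MHC class II genes, which T cells of the mouse do not make in quantity, had 20 or more UMIs in 24 of 137 Il10+Foxp3+ cells and in 10 of 204 members. Leaving those cells out gave 56 higher and 57 lower genes, with 59 of the 90 calls shared, and Gbp2 (-0.68) and Birc3 (-1.03) did not pass. Leaving out all cells with myeloid or B cell UMIs, after which 76, 6 and 5 Il10+Foxp3+ cells remained, gave 27 higher and 22 lower genes, with 29 calls shared. Areg (-0.79), Il18r1 (-1.33), Morrbid (-1.19), Gbp2 (-1.05), Birc3 (-1.04), Fgl2 (-0.97), Lilrb4a (-1.32) and Mki67 (-1.29) did not pass in it, whereas Itgae (-1.47) and Tnfrsf9 (-1.42) did. With DESeq2, Areg (-1.32), Tnfrsf9 (-1.16), Slc16a3 (-1.53), Morrbid (-1.33), Birc3 (-1.10), Fgl2 (-1.14), Mki67 (-0.996) and Cd14 (-1.19) did not pass. Without library 1, Itgae (-2.14), Tnfrsf9 (-1.28), Areg (-1.2), Il18r1 (-2.05), Slc16a3 (-1.85), Morrbid (-1.70), Fam129a (-1.63), Hist1h1c (-1.45), Gbp2 (-0.90), Birc3 (-1.04), Fgl2 (-1.08), Lilrb4a (-1.13) and Mki67 (-1.55) did not pass. Without library 2 the same 13 genes did not pass, at -1.34, -1.12, -1.18, -1.27, -1.24, -0.95, -1.01, -1.08, -1.40, -1.30, -1.35, -1.33 and -0.33. Birc3 (-1.02), Fgl2 (-0.93) and Mki67 (-1.12) were also lost without library 3. In cells of 1500 to 6000 UMIs, Fam129a (-0.98), Gbp2 (-0.28), Birc3 (-0.91), Fgl2 (-0.75), Mki67 (-1.91) and Morrbid (-1.24) did not pass. Hist1h1c (0.28) did not pass there either and changed sign. Itgae (-2.18), Tnfrsf9 (-2.13), Areg (-1.99), Il18r1 (-2.12), Slc16a3 (-2.62) and Lilrb4a (-3.76) still passed.

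**Figure D4:**
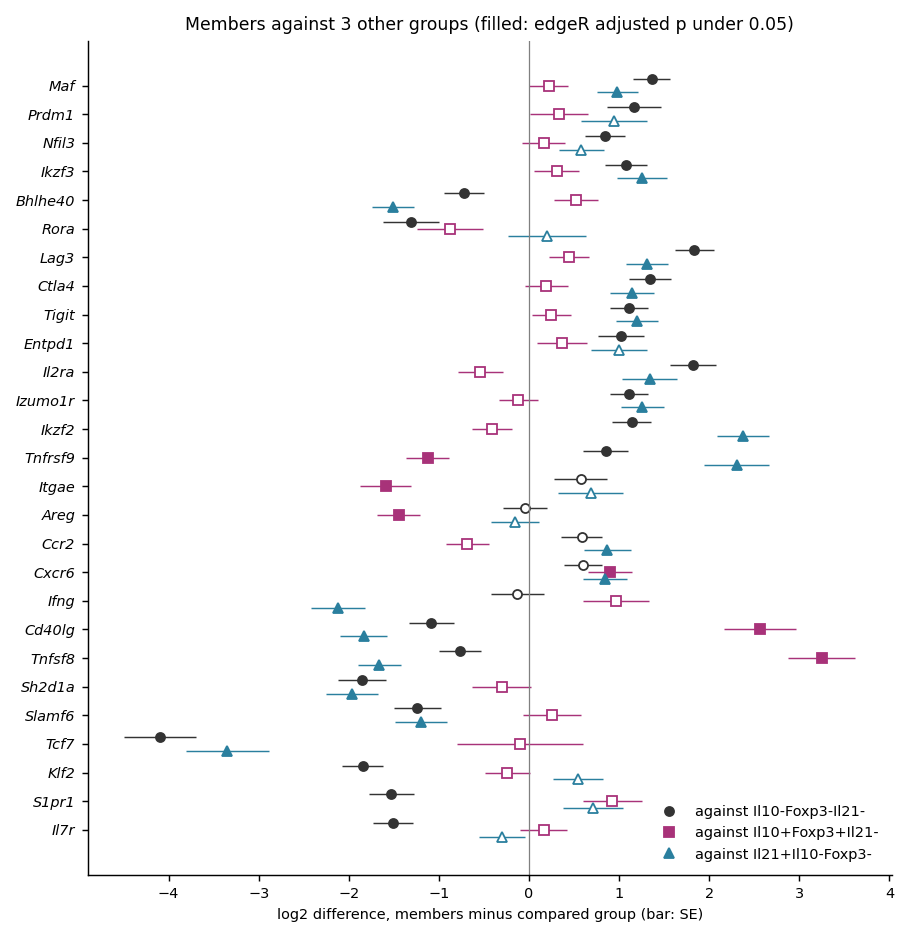
Log2 difference (x axis) between the members and 3 other groups of CD4 T cells for 27 genes of the lists, with bars of 1 SE and filled symbols for an adjusted p under 0.05. Against Il10-negative cells Tcf7 reaches -4.10 and Lag3 1.84, whereas against Il10+Foxp3+ cells the filled symbols furthest from 0 are Tnfsf8 at 3.25 and Itgae at -1.59.

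The third comparison set the members beside Il21+ cells without Il10 and Foxp3, the IL-21 producers of the same nerves, again with the same member sums. The Il21+ group held 68, 99 and 6 cells, and 1 UMI in library 3 was worth 56.4 CPM. In the members 72 genes were higher (1.17% of those tested) and 68 were lower (1.1%). Without sums of fewer than 10 cells 73 were higher and 127 lower. Without library 1 the counts were 14 and 21, without library 2 they were 22 and 27, and without library 3 they were 83 and 147.

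Of 10 tested follicular helper genes 6 were lower in the members than in Il21+ cells and 1, Izumo1r, was higher, with a median of -1.31, and 3 of 20 type 1 helper and cytotoxic genes were lower. Ifng was at 172, 197 and 181 CPM against 788, 555 and 1860, without overlap (-2.12, SE 0.30, adjusted p = 2.45e-06). Tnfsf11 was at 69.5, 50.5 and 0 against 510, 485 and 789 (-3.22, SE 0.28, adjusted p = 3e-26). Cd40lg was at 159, 79.8 and 25.8 against 480, 286 and 563.5 (-1.83, SE 0.26, adjusted p = 1.2e-09). Tnfsf8 (-1.66), Cd200 (-1.41), Sh2d1a (-1.96), Slamf6 (-1.2) and the inhibitory receptor Btla (-1.76) were lower as well. Bhlhe40 was at 596, 452 and 284 CPM against 1392, 1199 and 1803 (-1.51, SE 0.23, adjusted p = 2.02e-08). Mir155hg, whose mature arm is printed above, was at 39.7, 7.98 and 51.6 against 172, 129 and 113 (-2.64, SE 0.38, adjusted p = 3.27e-09). Tcf7 (-3.35), Igfbp7 (-2.65), Cd9 (-2.30) and Asap1 (-1.69) were among the lowest. Spp1 (osteopontin) was lower too (-2.47), but 26 of its 38 member UMIs came from 1 cell. Il2 had 1, 1 and 0 UMIs in the members and 88, 28 and 0 in Il21+ cells. Calls lost without library 1 were those of Cd200 (-1.04), Slamf6 (-0.53), Sh2d1a (-1.42), Btla (-1.48), Cd9 (-1.61) and Asap1 (-2.07). Without library 2 Cd200 (-1.26), Tnfsf8 (-1.18), Slamf6 (-1.60), Btla (-2.09), Mir155hg (-1.97) and Asap1 (-1.48) were lost, and without library 3 Ifng (-1.88) and Spp1 (-2.53). Among Foxp3-negative cells without Il2ra and Ikzf2 UMIs, Ifng (-1.28), Mir155hg (-1.55), Asap1 (-1.73), Btla (-1.62), Slamf6 (-0.93) and Spp1 (-0.69) did not pass. Ifng also did not pass with DESeq2 size factors (-2.10), in cells of 1500 to 6000 UMIs (-2.29) or without cells holding myeloid or B cell UMIs (-2.21), and Slamf6 (-1.16) did not with DESeq2. Asap1, Cd200 and Tnfsf8 also did not pass in cells of 1500 to 6000 UMIs.

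Of 17 tested regulatory T cell genes 6 were higher and 2 lower in the members than in Il21+ cells, and of 19 migration genes 4 were higher. Ikzf2 was at 294.5, 402 and 310 CPM against 51.3, 82.0 and 0 (2.37, SE 0.28, adjusted p = 1.49e-13). Tnfrsf9 (2.30), Il2ra (1.34), Ctla4 (1.14) and Izumo1r (1.26) were also higher, and Nrp1 (-1.09) and Ebi3 (-2.35) were the lower genes. Maf was at 778, 601 and 413 CPM against 350, 321 and 56.4 (0.98, SE 0.23, adjusted p = 0.00155), and the member range lay above that of the Il21+ cells. Prdm1 did not pass (0.94, SE 0.36, adjusted p = 0.2), but did with no Cd4 UMI needed (0.995). Ccr2 was at 434, 165 and 77.4 against 184, 124 and 0 (0.87, SE 0.26, adjusted p = 0.0466), higher in 3 of 3 libraries. Cxcr6 (0.84) and Selplg (0.87), the ligand of selectins, were higher as well. The inhibitory receptors Lag3 (1.31) and Tigit (1.2) were higher too. Ifngr1, the receptor chain for interferon gamma, was at 1413, 1072 and 1161 CPM against 516, 358 and 338 (1.52, SE 0.25, adjusted p = 5.07e-07), without overlap. Cd27 (1.82), Lztfl1 (1.79), Arl5a (1.76), Rnase4 (1.88), Ddit4 (1.55) and Snx9 (1.53) were also among the highest. Among Foxp3-negative cells without Il2ra and Ikzf2 UMIs, the difference of Tnfrsf9 was -0.89, and Maf (0.61), Ctla4 (0.85), Ccr2 (0.72), Arl5a (1.38), Nrp1 (-0.29), Rnase4 (1.49) and Snx9 (1.30) did not pass. With DESeq2, Maf (1.04), Ccr2 (0.91), Cxcr6 (0.90), Nrp1 (-1.04) and Ebi3 (-2.22) did not pass. Il2ra did not pass in cells of 1500 to 6000 UMIs. Without library 1, Tnfrsf9 (1.69), Ctla4 (1.19), Maf (0.96), Ccr2 (0.49), Cxcr6 (0.73), Selplg (0.93), Il2ra (1.2), Izumo1r (1.48), Nrp1 (-1.19), Lag3 (1.51), Tigit (1.59), Cd27 (1.43), Rnase4 (1.84), Ddit4 (1.56) and Snx9 (1.78) did not pass. Without library 2, Ctla4 (0.90), Maf (1.13), Ccr2 (1.23), Cxcr6 (1.04), Selplg (1.10), Il2ra (1.60), Izumo1r (1.43), Nrp1 (-0.95), Lag3 (1.37), Tigit (1.22), Arl5a (1.58), Rnase4 (1.88), Ddit4 (1.41) and Snx9 (1.37) did not, and without library 3, Ccr2 (0.88) and Ddit4 (1.61) did not.

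**Figure D5:**
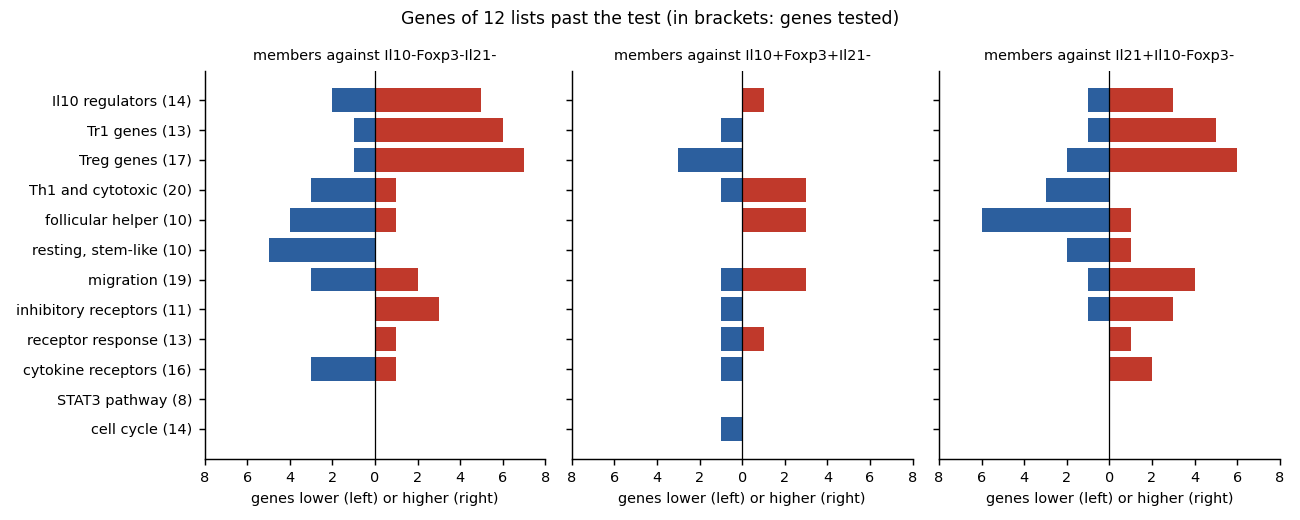
Number of genes of 12 lists that were lower (left of 0) or higher (right of 0) in the members than in each of 3 compared groups, with the genes tested in brackets. Against Il10-negative cells 7 of 17 regulatory T cell genes and 6 of 13 Tr1 genes are higher and 5 of 10 resting, stem-like genes lower, and against Il21+ cells 6 of 10 follicular helper genes are lower.

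Transcripts of other cell types were present in the members at uneven levels. The 15 macrophage and monocyte genes summed to 6197, 7188 and 14947 UMIs per 1000000 in libraries 1 to 3, against 7588, 6436 and 3278 in Il10-negative cells, 9463, 22183 and 285 in Il10+Foxp3+ cells and 12129, 12319 and 86.3 in Il21+ cells. Of these genes 14, 15 and 9 had a UMI in the members, and in library 3 Lyz2, Apoe, Csf1r, Adgre1, Ms4a7 and Itgam were at 0. Much of the sum came from the MHC class II genes Cd74, H2-Aa and H2-Ab1, which had 20 or more UMIs in 3, 6 and 1 members. Those 10 members held 96.3% of the members' UMIs of these 3 genes. Against Il10-negative cells 0 of 12 tested genes of the list, 0 of 2 B cell genes and 0 of 1 Schwann cell gene passed in edgeR, and 0 in DESeq2, while 1, 0 and 1 had an unadjusted edgeR p under 0.05. The natural killer gene Klrd1 was lower (-1.12), but its call was lost without library 1 (-1.26), 2 (-1.07) or 3 (-1.07) and with DESeq2 (-1.12). The B cell genes Ms4a1, Pax5 and Cd22 were at 0 in the members of every library, and the 7 B cell genes summed to 153, 155 and 54.9 UMIs per 1000000. The 7 genes of natural killer and gamma delta T cells summed to 86.7, 70.3 and 0. Of the 5 Schwann cell genes, Pmp22 and Prx were at 0, and Mbp gave 65.9, 37.5 and 27.4. Leaving out cells with 20 or more MHC class II UMIs gave 146 higher and 180 lower genes against Il10-negative cells.

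The T cell receptor beta V genes of the members differed between libraries. Among cells with UMIs of exactly 1 Trbv gene, Trbv5 was the most frequent in library 1, in 10 of 53 members (18.9%, exact interval 9.44 to 32.0) and 37 of 234 Il10-negative cells (15.8%). In library 2 Trbv13-2 was the most frequent, in 15 of 68 members (22.1%, 12.9 to 33.8) and 64 of 381 Il10-negative cells (16.8%). In library 3 Trbv13-3 was found in 4 of 10 members (40.0%, 12.2 to 73.8) and 7 of 90 Il10-negative cells (7.78%, 3.18 to 15.4). Trbv5 was found in 0 of 68 members of library 2, which allows a share of up to 5.28% by the exact interval. In libraries 1 and 2 the leading gene's interval in the members covered its share in Il10-negative cells, whereas in library 3 it lay above it, in a gene that was picked for its count in these 10 cells.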

How the data were processed

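CD45+ cells of the sciatic nerve were profiled by 10x Chromium, and the authors aligned reads to mm10 with Cell Ranger, versions 5.0.1 and 6.1.2 per the file headers. The deposited values are whole-number UMI counts per gene and cell (32285 gene rows), not normalized. The feature list of library 1 was not analysed here, so its gene order was taken from libraries 2 and 3, whose gene totals it matched (Spearman 0.950 and 0.929, against 0.362 and 0.321 when shifted by 1 row). Cells over 5000 genes or over 20% mitochondrial UMIs were left out.

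UMIs were summed per library and group (5 groups, 15 sums) and fitted in 1 model with edgeR 4.0.16 (R 4.3.3): TMM scaling, filterByExpr, library as a block, robust quasi-likelihood test, Benjamini-Hochberg adjustment over 6162 genes, with the 13 genes of the rule taken out. The same code was tested on simulated data. The simulated libraries shared the same gene proportions, so that test did not cover differences between libraries. No doublets were removed, because Scrublet called only 2 cells at its own threshold, all in library 3, and leaving out the highest scores was an alternative. Named genes were the 10 largest differences in each direction past the test, with 1 direction in every library and at least 50 CPM, plus genes of the fixed lists. Some genes that these rules cover are not reported here, while counts over lists include them. Genes of lists with few calls were named after their values were seen. The members, lists and comparisons were chosen with earlier results of these data known. Motifs were searched in RefSeq windows. Alternatives were DESeq2 1.42.0, other scaling, filters and cell selections, and leaving out each library.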

Additional observations from a re-analysis of the deposited data

Results flagged for a closer look

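The difference between Il10-positive and Il10-negative cells was compared between Foxp3-negative and Foxp3-positive cells by an interaction term in the same edgeR fit. Of 6162 genes, 14 (0.227%) had a higher and 15 (0.243%) a lower difference in Foxp3-negative cells, and 10 are named by the rule for named genes. The cell surface receptors Il2ra (1.85) and Tnfrsf9 (1.25) had the higher difference, with Neb (1.86), Snx9 (1.44) and Arl5a (1.23). Il2ra was at 151 ± 42.1 CPM in the members and 46.2 ± 4.24 in Il10-negative Foxp3-negative cells, and at 222 ± 37.3 and 275 ± 80.7 in the Il10-positive and Il10-negative Foxp3-positive cells (SD, n = 3 libraries). Snx9 was at 206 ± 67.6 and 55.5 ± 4.66 against 158 ± 29.8 and 155 ± 35.3.

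The lower difference was found for Dusp10 (-1.97), Klf3 (-1.93), Gramd3 (-1.92), Tnfsf11 (-1.85) and Emb (-1.76). Dusp10 was at 42.2 ± 9.87 CPM in the members and 227 ± 85.5 in Il10-negative Foxp3-negative cells, and at 57.5 ± 28.2 and 81.9 ± 56.8 in the Foxp3-positive cells. Emb was at 93.9 ± 21.6 and 471 ± 133 against 105 ± 64.1 and 184 ± 53.1. In these genes the Il10-negative Foxp3-negative cells stood apart from the other 3 groups. Of the 10 genes 10 lost their call without library 1, 10 without library 2 and 10 with no library block, and 8 lost it without library 3 and 8 with DESeq2. No gene kept its call in more than 10 of the 15 alternatives, and Tnfrsf9 kept it in 2. Il2ra was at 2.26, 1.73 and 1.79 without library 1, 2 or 3, Tnfrsf9 at 1.09, 1.09 and 1.42, Snx9 at 1.86, 1.46 and 1.31, Dusp10 at -2.29, -1.45 and -2.02, and Emb at -1.85, -1.74 and -1.64.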

How the results depend on the processing

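Calls against Il10-negative cells numbered 188 in the model described, 294 with DESeq2 size factors, 288 without sums under 10 cells, 330 with 1500 to 6000 UMIs per cell, 122 without Il2ra or Ikzf2 UMIs, 605 with no Cd4 UMI needed, 326 without cells of 20 or more MHC class II UMIs (chosen after seeing the data), 26 with no library block, and 40 to 264 without 1 library. Against Il10+Foxp3+ cells the 90 calls became 30 with DESeq2, 50 without small sums, 49 without cells holding myeloid or B cell UMIs, 2 with no block, and 14 to 65 without 1 library. With 1500 to 6000 UMIs per cell 72 genes were called, of which only 24 were shared with the 90. Against Il21+ cells the 140 calls became 44 without Il2ra or Ikzf2 UMIs, 330 with no Cd4 UMI needed, 13 with no block, and 35 to 230 without 1 library. The 29 interaction calls became 49 with DESeq2 size factors, 6 with DESeq2, 16 without Il2ra or Ikzf2 UMIs, 111 with no Cd4 UMI needed, 0 with no block in edgeR (88 at an unadjusted p under 0.05), and 8 to 17 without 1 library. The share of members among CD4 T cells of 8.83% was 6.09% after thinning before the rule, 6.32% with no Cd4 UMI needed, 4.87% with 2 or more Il10 UMIs, and 8.21% to 9.71% without 1 library. In the thinned mean library 3 stood with 1 of 97 cells. Without thinning, Maf was found in 71.6% and Prdm1 in 21.9% of members.

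Signs turned for genes in single settings, mostly those near 0. Against Il10-negative cells these were, with no Cd4 UMI needed, Batf (0.0870), Ifng (0.47), Pdcd1 (0.29), Tnfsf8 (0.10) and Tbx21 (-0.25). Without Il2ra or Ikzf2 UMIs they were Ifng (0.58), Ikzf2 (-0.0603), Il1r2 (-0.55), Il27ra (-0.16) and Tnfrsf9 (-1.69). Without cells holding myeloid or B cell UMIs they were Ifng (0.10), Pdcd1 (0.16), Il1r2 (-0.00179) and Stat3 (0.12). With 1500 to 6000 UMIs it was Il10ra (-0.22), and Il21r was at 0.0015 with DESeq2 size factors and 0.0107 with DESeq2. Without 1 library, the differences ran from -0.10 to 0.89 for Ahr, -0.36 to 0.22 for Ifng, -0.0363 to 0.31 for Il10ra, -0.13 to 0.23 for Il21r, -0.19 to 0.0346 for Pdcd1 and -0.14 to 0.0068 for Stat3, and, against Il10+Foxp3+ cells, from -0.0011 to 0.36 for Maf. Against Il10+Foxp3+ cells Hist1h1c was at 0.28 with 1500 to 6000 UMIs and Maf at -0.0913 without Il2ra or Ikzf2 UMIs, where Ikzf2 (-0.0636) and Tnfrsf9 (-0.89) turned against Il21+ cells and Tnfrsf9 (-1.29) in the interaction. Ikzf2 has no UMI in that setting by construction, and for the others the cause was not tested. The 15 and 5 to 6 cells of library 3 limit what its sums can show.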

Other observations

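Cells with UMIs of both Il10 and Il21 and none of Foxp3 (15, 30 and 2 in libraries 1 to 3) belonged to neither compared group. They held 6.89%, 11.0% and 4.55% of all Il10 UMIs of their libraries, at median depths of 3465, 3656.5 and 1617 UMIs per cell. Among T cells without a UMI of Cd4, Cd8a and Cd8b1, Il10 was found in 11.4%, 8.39% and 5.86%, and these cells held 12.8%, 20.0% and 65.5% of the Il10 UMIs, so that in library 3 most Il10 UMIs lay outside the gate of the members. Macrophages of library 2, defined by 5 or more C1q UMIs and no Cd3 UMI, had an Il10 UMI in 0.924% of 1840 cells.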
